A study of Mus musculus with 21 samples.

Results

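The window described here is a stretch of 2801 nucleotides (nt) on the plus strand of mouse chromosome 11, at 68884516 to 68887316 of build mm9, which covers Tmem107 and the U8 small nucleolar RNA, Snord118. Its members are the positions that 6 lists of SRSF3 and SRSF7 binding hold there, 126 different nucleotides in all. In the order chromatin, nucleoplasm, cytoplasm, the SRSF3 lists held 95, 43 and 63 of them and the SRSF7 lists 74, 42 and 34. The window was selected on its listed cDNAs in chromatin and cytoplasm, because their order is opposite for SRSF3 and SRSF7. That order is therefore given as a description and supports nothing by itself.

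The cells were P19, a mouse embryonal carcinoma line, expressing SRSF3 or SRSF7 fused to GFP, the green fluorescent protein. They were crosslinked with ultraviolet light at 254 nm and separated into chromatin, nucleoplasm and cytoplasm before iCLIP, in which the start of each cDNA marks a nucleotide touched by the protein. The labels describe 4 replicates per fraction for SRSF3-GFP and 3 for SRSF7-GFP, with all 6 groups sharing the cell line and the crosslinking, and none without a tagged protein. Replicates were pooled before deposit into 1 list per group, so no spread between replicates exists here and no p-value is given. Intervals in brackets are exact 95% intervals that cover counting error only.

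U8 is a box C/D small nucleolar RNA. Unlike most of its kind, which guide methylation of other RNAs and are cut out of introns, U8 is made from its own promoter and is needed to process the precursor of the large-subunit ribosomal RNAs. It acts in the nucleolus. Tmem107 encodes a membrane protein of the ciliary transition zone, and in the RefSeq gene order of GRCm38.p6 Snord118 is its next gene, followed by Vamp2. SRSF3 and SRSF7 belong to the SR family of splicing factors, which bind RNA and also serve in mRNA export.

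Almost all of the binding lay in 1 block of 113 nt, at 68886924 to 68887036. It held 8046 of the 8062 cDNAs of the window in SRSF3 chromatin, 2286 of 2289 in nucleoplasm and 3211 of 3219 in cytoplasm. For SRSF7 it held all 4971, 930 and 365 cDNAs. The block begins 2408 nt after the first position of the window. No mm9 annotation was used here, so reading the block as U8 rests on the gene content of the window, the order of its genes and the short, densely filled stretch. Nothing in the lists names it. Snord118 has a length of 137 nt against the 113 nt of the block, and their ends were not matched.

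Outside the block the window was nearly empty, and SRSF7 had no listed position there in any fraction. Upstream, where the body of Tmem107 is to be looked for, SRSF3 chromatin had a single position with 1 cDNA, at 68884516, and the other 5 lists had none. Downstream, a short block at 68887160 to 68887180 held 10 cDNAs of SRSF3 chromatin, 3 of nucleoplasm and 8 of cytoplasm, and a last one at 68887301 to 68887316 held 5 in chromatin. No minus-strand position was listed in the window. The values below are thus values of this block, called U8 from here on, and the lists give almost nothing upstream of it. Whether any cDNA of the block came from the Tmem107 transcript was not tested. A position missing from a list did not pass the peak threshold and is not shown to be unbound.

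The share of each list's cDNAs that fell in the window ran in opposite order for the SRSF3 and SRSF7 proteins. SRSF3 chromatin had 0.456% (0.446 to 0.466), SRSF3 nucleoplasm 0.725% (0.696 to 0.756) and SRSF3 cytoplasm 1.25% (1.21 to 1.30). SRSF7 chromatin had 2.0% (1.95 to 2.06), SRSF7 nucleoplasm 0.338% (0.317 to 0.361) and SRSF7 cytoplasm 0.0994% (0.0894 to 0.110). SRSF3 was thus lowest in chromatin and highest in cytoplasm, SRSF7 the reverse. None of the 6 intervals overlapped, but they hold no spread between replicates, and the same is not given for other loci. The nucleoplasm, which the choice of the window did not use, lay between chromatin and cytoplasm for SRSF3 and SRSF7 alike. How much U8 each fraction held was not measured, so more U8 in a fraction and more frequent binding of the same U8 cannot be told apart.

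**Figure D1:**
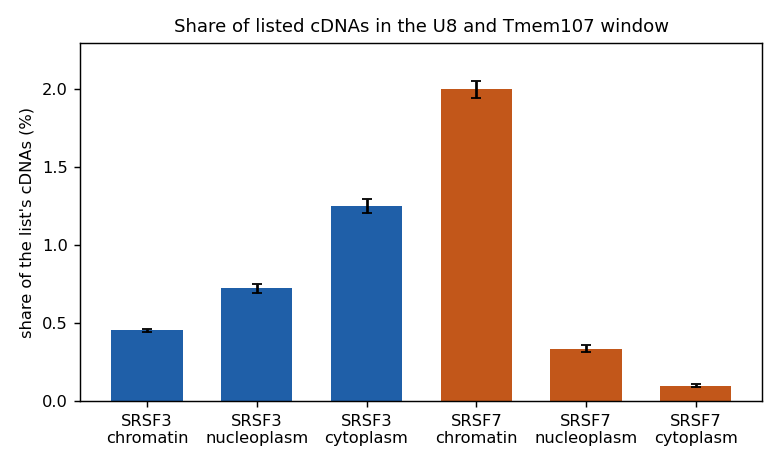
Share of each list's cDNAs (percent, linear axis from 0) in the U8 and Tmem107 window, 1 bar per pooled list with its exact 95% counting interval. SRSF3 is lowest in chromatin at 0.456% and highest in cytoplasm at 1.25%, while SRSF7 is highest in chromatin at 2.0% and lowest in cytoplasm at 0.0994%.

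Among all loci of a list, formed by joining positions up to 10000 nt apart on 1 strand, U8 was one of the strongest in 5 of the 6. By cDNAs it ranked 12th of 18230 loci in SRSF3 chromatin, 9th of 10609 in SRSF3 nucleoplasm and 8th of 8267 in SRSF3 cytoplasm. In SRSF7 it ranked 4th of 9107 in chromatin and 24th of 11351 in nucleoplasm, but 90th of 12499 in cytoplasm. Each listed nucleotide carried a mean of 84.9, 53.2 and 51.1 cDNAs in the 3 SRSF3 lists and 67.2, 22.1 and 10.7 in the 3 SRSF7 lists. Over whole lists that mean was between 2.03 and 4.38.

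In summed cDNAs, the fold between chromatin and cytoplasm was greater in SRSF7 than in SRSF3. The SRSF7 share was 20.1-fold higher in chromatin (18.1 to 22.4), a log2 ratio of 4.33 (4.18 to 4.49). The SRSF3 share was 2.75-fold lower in chromatin (2.64 to 2.86), a log2 ratio of -1.46 (-1.52 to -1.40). Both intervals lay beyond 2-fold, which among all loci compared was so for 38.0% in the lower direction in SRSF3 and for 22.3% in the higher direction in SRSF7. The sums cover positions called in each list separately, 74 against 34 in SRSF7 and 95 against 63 in SRSF3, and they move with how many were listed. Over the 8 positions that both SRSF7 lists held, the share was 9.51-fold higher in chromatin (7.95 to 11.4). Over the 47 held by both SRSF3 lists it was 3.68-fold lower (3.51 to 3.86). With positions counted in place of cDNAs the log2 ratios were 2.03 in SRSF7 and -3.30 in SRSF3, so the larger of the pair was then that of SRSF3.

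Of these ratios of chromatin to cytoplasm, only that of SRSF7 stood far from the bulk of loci. The window was selected on this contrast, so its ranks are given as a description. Over 852 loci compared in SRSF7 the median log2 ratio of chromatin to cytoplasm was 0.01, and U8 ranked 14th from the top. Over 1050 loci compared in SRSF3 the median was -0.74, so U8 lay 0.72 below it, at rank 641 from the top, well inside the bulk. With positions of at least 3 cDNAs, in the window and in the list totals, the SRSF3 log2 ratio of U8 was -0.75. The median was -0.73 over 479 loci, and the interval of U8 no longer lay beyond 2-fold. The SRSF7 ratio was then 4.12 against a median of 0.02 over 335 loci. The low SRSF3 share in chromatin was therefore close to what the typical locus showed between these lists.

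Of 547 loci compared in SRSF3 and in SRSF7, 23 were, like U8, beyond 2-fold lower in chromatin for SRSF3 and higher for SRSF7. That is 4.20% of them, and 8.04% had opposite directions of either kind. The log2 ratio of U8 in SRSF7 exceeded that in SRSF3 by 5.79, the 13th highest such difference, where the median difference was 0.75. Opposite directions in this contrast chose the window, so that rank is likewise a description.

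**Figure D2:**
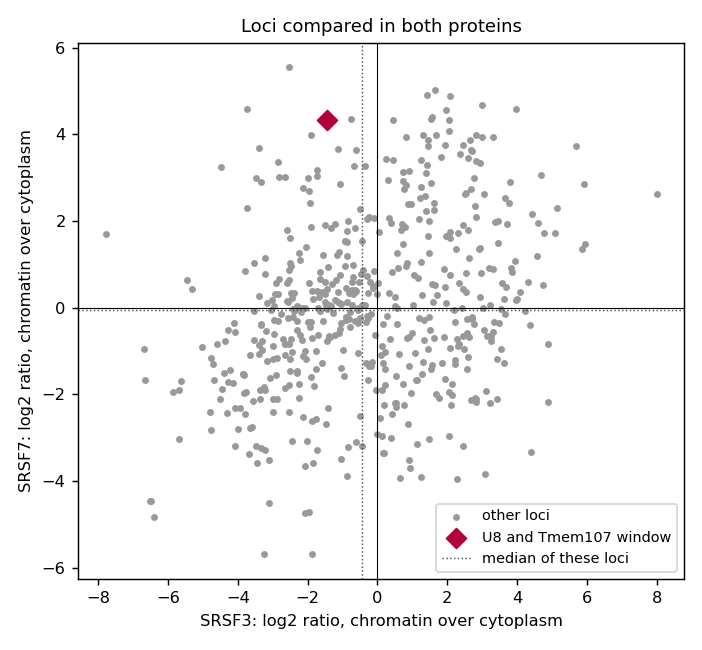
Log2 ratio of shares, chromatin over cytoplasm, for SRSF3 (x axis) and SRSF7 (y axis), 1 point per locus, over the 547 loci compared in SRSF3 and in SRSF7; the diamond is the U8 and Tmem107 window and dotted lines are the medians of these loci. U8 lies near the top on the SRSF7 axis at 4.33 and in the crowded middle on the SRSF3 axis at -1.46.

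Summed over the window, the ratios with nucleoplasm had the same directions at smaller size. SRSF7 had 5.92-fold more of its cDNAs on U8 in chromatin than in nucleoplasm (5.51 to 6.35), and 14.2% of all loci lay beyond 2-fold in that direction. It also had 3.40-fold more in nucleoplasm than in cytoplasm (3.01 to 3.85), against 22.6% of loci. Over positions in both lists these folds were 3.59 (3.25 to 3.96) and 3.01 (2.49 to 3.66). The order of SRSF7 nucleoplasm and cytoplasm was not the same along the block. In its first 31 nt the SRSF7 share was 2.72-fold lower in nucleoplasm than in cytoplasm (2.08 to 3.59), from 4 against 19 positions. In its last 35 nt that share was 10.3-fold higher in nucleoplasm (8.44 to 12.8), from 35 against 15. For SRSF3 the share was 1.59-fold lower in chromatin than in nucleoplasm (1.52 to 1.67) and 1.73-fold lower in nucleoplasm than in cytoplasm (1.64 to 1.82), neither beyond 2-fold. Over the 42 positions held by SRSF3 chromatin and nucleoplasm alike, the share was 2.83-fold lower in chromatin (2.69 to 2.98), which is beyond 2-fold. That direction was common: 1119 of 1169 loci with at least 5 such positions were lower in chromatin. Their median log2 ratio was -1.98, and U8 lay above it at -1.50. In the middle of the block, from nt 32 to nt 78 counted from its first nucleotide, the direction was the other one, 3.89-fold higher in chromatin (3.31 to 4.61), from 37 against 3 listed positions. Of all loci in SRSF3, 31.6% lay beyond 2-fold lower in chromatin than in nucleoplasm, and 8.36% lower in nucleoplasm than in cytoplasm. The log2 ratios of U8 differed between SRSF7 and SRSF3 by 3.24 for chromatin over nucleoplasm and by 2.55 for nucleoplasm over cytoplasm. Both differences share the chromatin or the cytoplasm values on which the window was selected.

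Compared within a fraction, the summed share was higher for SRSF7 on chromatin and for SRSF3 in nucleoplasm and cytoplasm. The chromatin and cytoplasm shares are those on which the window was selected, so their folds and ranks are descriptions only. The track names of the SRSF7 lists differ from those of SRSF3 in how regions were treated, and a difference in peak calling would bear on every comparison of SRSF3 with SRSF7. On chromatin the SRSF7 share was 4.39-fold the SRSF3 share (4.24 to 4.55), and 17.2% of loci lay beyond 2-fold on that side. Over positions in both chromatin lists, 718 of 728 loci had the higher share in SRSF7, with a median log2 ratio of SRSF3 over SRSF7 of -1.81 against -2.49 for U8. That direction was thus shared by nearly every locus. In nucleoplasm SRSF3 had 2.15-fold the SRSF7 share, with an interval of 1.99 to 2.32 that did not clear 2-fold, while 12.7% of loci lay beyond 2-fold on that side. With positions counted, the interval of that log2 ratio ran from -0.36 to 0.94. Over the last 35 nt of the block the nucleoplasm order was the other one, with an SRSF7 share 2.66-fold that of SRSF3 (2.35 to 3.02), from 35 against 10 listed positions. In cytoplasm SRSF3 had 12.6-fold the SRSF7 share (11.3 to 14.1), the 6th highest ratio of 866 loci, of which 14.0% lay beyond 2-fold on the SRSF3 side. Those sums cover 63 against 34 positions. Over the 31 held by both cytoplasm lists the fold was 5.19 (4.58 to 5.90), 16th of 548 loci with a median log2 ratio of 0.64, and over the 6 positions held by every list it was 3.48 (2.63 to 4.66).

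Within the block, the tallest listed nucleotide was not the same for SRSF3 and SRSF7, counted here from 1 at 68886924. For SRSF3 in every fraction it was nt 9, at 68886932. The chromatin list had 924 cDNAs there, the nucleoplasm list 662 and the cytoplasm list 702, which is 11.5%, 28.9% and 21.8% of the window. No SRSF7 list held nt 9. In SRSF7 cytoplasm nt 10 was listed with 25 cDNAs, but the other 2 SRSF7 lists held no position from nt 6 to at least nt 23. The SRSF7 level at nt 9 is therefore not known, and a difference in where binding was strongest is not shown.

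The tallest listed nucleotide of SRSF7 differed between fractions. In chromatin it was nt 4, at 68886927, with 501 cDNAs. In nucleoplasm it was nt 94, at 68887017, with 171 cDNAs, and in cytoplasm nt 25, at 68886948, with 59. These nucleotides sat near the start of the block, near its end, and in its first part.

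Position nt 4 was listed in all 6 files and allowed a comparison of 1 nucleotide. In the same order of fractions, SRSF3 had 361, 131 and 73 cDNAs on it and SRSF7 had 501, 61 and 28. As a share of each list these were 0.0204%, 0.0415% and 0.0284% with SRSF3, against 0.202%, 0.0222% and 0.00762% with SRSF7. SRSF7 was highest in chromatin and lowest in cytoplasm here as in the whole window, while SRSF3 was highest in nucleoplasm.

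Other tall nucleotides were held by some lists and missing from others. Position nt 25 carried 215, 153 and 222 cDNAs across the SRSF3 fractions, 172 in SRSF7 chromatin and 59 in SRSF7 cytoplasm, and it was not listed in SRSF7 nucleoplasm. Position nt 80, at 68887003, carried 197, 149 and 215 across the SRSF3 fractions, 182 in SRSF7 chromatin and 67 in SRSF7 nucleoplasm, and was not listed in SRSF7 cytoplasm. Position nt 94 reached 407 cDNAs in the SRSF3 cytoplasm list and 269 in SRSF7 chromatin, yet was listed in neither SRSF3 chromatin nor SRSF3 nucleoplasm. Lists of the same protein could therefore differ at a nucleotide where another list was tall.

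**Figure D3:**
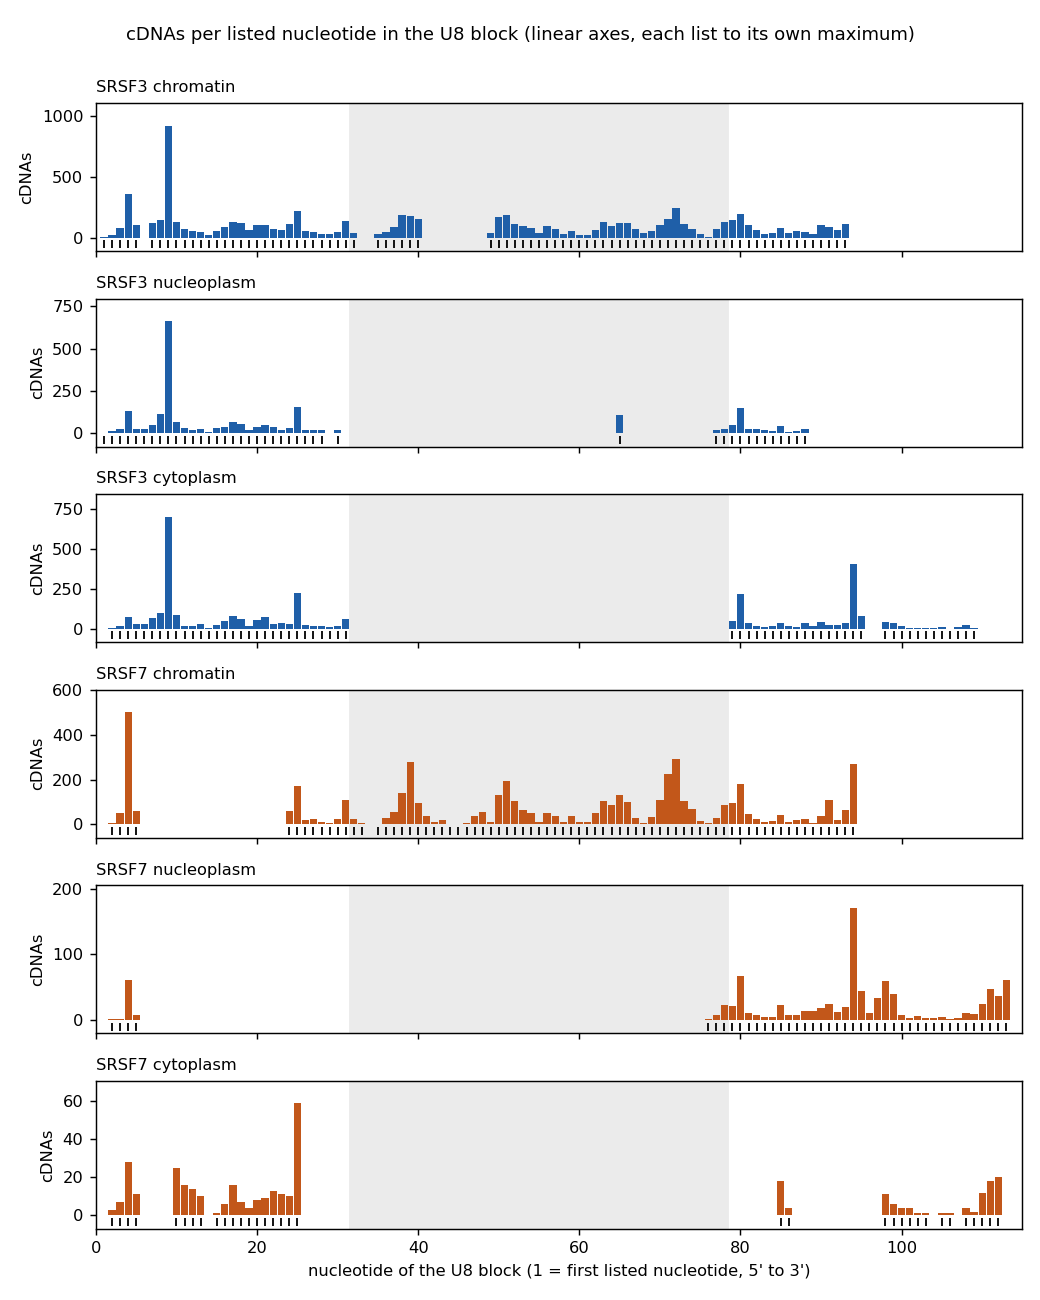
cDNAs (linear y axis, each panel to its own maximum) at each nucleotide of the U8 block (x axis, nt from its first listed nucleotide), 1 panel per list; ticks under the bars mark listed nucleotides, and grey marks nt 32 to 78, the longest stretch without a listed position in SRSF3 cytoplasm. The grey stretch is filled in the 2 chromatin lists and almost empty in the other 4, and nt 9 is the tallest listed nucleotide of SRSF3 in all 3 fractions.

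The middle of the block was listed chiefly on chromatin, for SRSF3 and SRSF7 alike. The stretch from nt 32 to nt 78 was marked out after seeing the data, as the longest gap of the SRSF3 cytoplasm list. It held 3317 cDNAs over 37 positions in SRSF3 chromatin, 41.2% of the block (40.1 to 42.3), and 2967 over 46 positions in SRSF7 chromatin, 59.7% (58.3 to 61.1). In SRSF3 nucleoplasm it held 152 cDNAs, 6.65% of the block, of which 107 were at a single nucleotide, nt 65. In SRSF7 nucleoplasm it held 31 cDNAs, 3.33%, and in both cytoplasm lists nothing.

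Tall sites of this middle stretch were nt 39, at 68886962, and nt 72, at 68886995. On chromatin, nt 39 carried 178 SRSF3 and 277 SRSF7 cDNAs, and nt 72 carried 243 and 293. Neither was listed in the 4 nucleoplasm and cytoplasm lists. Over the 64 positions held by both chromatin lists, counts ran closely together, at a Pearson r of 0.93 and a Spearman rho of 0.95. That is a description across neighbouring nucleotides of 1 RNA, which are not independent.

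The ends of the block divided the other lists. The first 31 nt held 77.7% of block cDNAs in SRSF3 nucleoplasm (76.0 to 79.4), 61.5% in SRSF3 cytoplasm (59.8 to 63.2) and 70.7% in SRSF7 cytoplasm (65.7 to 75.3). In SRSF7 nucleoplasm they held 7.63% (6.01 to 9.53), and the last 35 nt, from nt 79, held 89.0% (86.8 to 91.0). The last 35 nt held 38.5% in SRSF3 cytoplasm and 14.9%, 15.6% and 19.5% in SRSF3 chromatin, SRSF3 nucleoplasm and SRSF7 chromatin. SRSF7 nucleoplasm was the one list weighted to the 3' end. It listed all 35 of those nucleotides, with 828 cDNAs, where SRSF7 cytoplasm listed 15 with 107. In the first 31 nt the nucleoplasm list held 4 positions, all from nt 2 to nt 5, with 71 cDNAs, and the cytoplasm list held 19 positions with 258.

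Many of these gaps had sharp borders. SRSF3 chromatin ended at nt 93 with 115 cDNAs and listed nothing at nt 94. SRSF7 chromatin ended at nt 94 with 269 cDNAs, and its gap from nt 6 to nt 23 lay between nucleotides with 57 and 61. Each of the 6 lists also held a nucleotide of the block with 1 cDNA. Of all positions with at least 50 cDNAs, between 5.76% and 9.69% per list had an unlisted nucleotide beside them, and in the block 4 of 58, 1 of 11 and 2 of 14 did in SRSF3 chromatin, nucleoplasm and cytoplasm, and 3 of 31, 1 of 5 and 1 of 1 in those of SRSF7. Listing was called against a 15 nt neighbourhood in each list separately, and its part in these gaps was not tested.

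The difference between fractions was therefore also taken over nucleotides held by both lists of a pair. For SRSF7, 8 positions were held by chromatin and cytoplasm, and chromatin was higher at all 8, with 901 against 140 cDNAs and a log2 ratio of 3.25 (2.99 to 3.52). For SRSF3, 47 positions were held by both, and chromatin was lower at all 47, with 4733 against 2533 cDNAs and a log2 ratio of -1.88 (-1.95 to -1.81). Of single positions, 5 of the 8 in SRSF7 and 18 of the 47 in SRSF3 had intervals beyond 2-fold. The same count is not given for positions of other loci, so these counts do not set U8 apart. This contrast also chose the window.

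This restriction moved other loci too. In SRSF3, 627 of 690 loci with at least 5 positions in both lists then had a log2 ratio of chromatin over cytoplasm below 0, with a median of -2.29, so U8 lay above the median. In SRSF7 the median over 432 loci was 0.36, and U8 ranked 22nd from the top, in the contrast that chose the window. Of the 44 loci with opposite directions, 20 had at least 5 such positions for SRSF3 and for SRSF7. All 14 that ran as U8 did kept their direction, and all 6 that ran the other way turned to it. A like direction over shared positions is thus common in these lists.

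Over the 6 nucleotides held by every list (nt 2 to 5, 85 and 86), SRSF3 summed to 682, 238 and 173 cDNAs from chromatin to cytoplasm and SRSF7 to 668, 101 and 71. The SRSF3 shares were 0.0386%, 0.0754% and 0.0673%, and the SRSF7 shares 0.269%, 0.0367% and 0.0193%. The SRSF7 order of the summed shares was that of the whole window, with nt 4 alone supplying 501, 61 and 28 of these cDNAs. At nt 2, 3 and 5 the SRSF7 log2 ratios of nucleoplasm over cytoplasm were -1.17, -2.39 and -0.04. At nt 85 and 86 they were 0.71 and 1.42. The intervals of these ratios spanned both directions, so the SRSF7 order of nucleoplasm and cytoplasm was resolved at nt 4 only. In SRSF3 chromatin was again lowest, but nucleoplasm and cytoplasm had a log2 ratio of 0.16 with an interval from -0.12 to 0.46, so their order was not resolved.

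**Figure D4:**
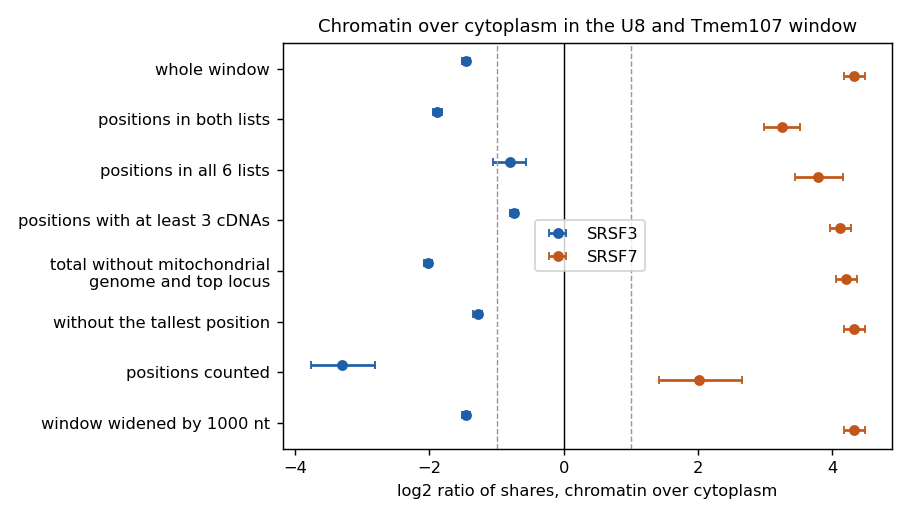
Log2 ratio of shares, chromatin over cytoplasm, for SRSF3 and SRSF7 in the U8 and Tmem107 window under 8 ways of counting (rows), with exact 95% counting intervals; dashed lines mark 2-fold. SRSF7 stays between 2.03 and 4.33, and SRSF3 between -3.30 and -0.75.

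Other small RNA loci, chosen for comparison with earlier results known and named from their mm9 position without an annotation, are given beside U8. 7SK is a nuclear RNA that holds the transcription elongation factor P-TEFb in an inactive complex. Its locus (chromosome 9, minus strand, 78023133 to 78023258) took 0.163% of SRSF3 chromatin, 2.07% of nucleoplasm and 1.89% of cytoplasm. Its SRSF7 shares were 0.742%, 1.50% and 0.787% in the same order. The SRSF7 ratio of chromatin to cytoplasm there was -0.08 on the log2 scale (-0.17 to 0.00077), against 4.33 for U8. In SRSF3 the ratio was -3.54 (-3.60 to -3.47), of the same direction as the -1.46 of U8 and larger. The ratio of SRSF3 over SRSF7 also had the direction of U8 in each fraction, at -2.19, 0.47 and 1.27 from chromatin to cytoplasm, against -2.13, 1.10 and 3.66. 7SK works in the nucleus, so its shares in the cytoplasm lists are given beside those of U8, and the part of nuclear RNA in the cytoplasm values of U8 was not tested.

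Gas5 and Gnl3 are genes whose introns carry box C/D small nucleolar RNAs. The Gas5 locus (chromosome 1, plus strand, 162965305 to 162970711) took 0.442% of SRSF3 chromatin against 0.0677% of SRSF3 cytoplasm, and 0.741% against 0.0607% for SRSF7. The Gnl3 locus (chromosome 14, minus strand, 31825550 to 31832202) took 0.056% of SRSF3 chromatin against 0.0179% of SRSF3 cytoplasm, and 0.213% against 0.00653% with SRSF7. The log2 ratio of chromatin to cytoplasm was thus positive for SRSF3 and SRSF7 alike at these hosts, 2.71 and 3.61 in Gas5 and 1.65 and 5.03 in Gnl3. For chromatin over cytoplasm, U8 had their direction in SRSF7 and the other one in SRSF3. The SRSF3 sums cover 508 positions in chromatin against 67 in cytoplasm for Gas5, and 172 against 16 for Gnl3. In SRSF7 they cover 213 against 92 and 66 against 20. No values over positions in both lists are given for these hosts, and the part of unequal listing was not tested. The nucleoplasm set Gas5 apart from U8, since Gas5 took 1.50% of SRSF7 nucleoplasm and its log2 ratio of chromatin over nucleoplasm was -1.02, against 2.56 for U8. In Gnl3 that ratio was 1.13. No test of these differences is possible without replicate values.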

How the data were processed

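Replicates were pooled by the authors, who deposited a single list for each group, as the labels' sample descriptions state. Each entry is 1 nt wide with a whole number of either sign, taken as the cDNA count, with the sign read as the strand from the values. The deposited counts are not scaled to depth. Per the file headers, listing required a false discovery rate below 0.05 in 100 permutations, judged over a 15 nt neighbourhood. All 3 SRSF7 track names add a term for regions taken as one, while the descriptions of all 6 lists say that regions were handled separately. Which holds for SRSF7 is not known, and it bears on every value that sets SRSF3 against SRSF7. Per the file headers and the submitters' processing notes the build is mm9; coordinates here are 1-based. Aligner, duplicate removal and the treatment of reads that map to several places: not given in the sources used here. SRSF3 chromatin was by far the largest list, with 1768665 cDNAs over 870234 positions. The other lists held between 248498 and 367298 cDNAs, over 58686 to 142444 positions. The part of this difference in the SRSF3 chromatin values was not tested.

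Shares are cDNAs of the window over those of the list, with Clopper-Pearson intervals, and ratios carry conditional exact binomial intervals. Loci were compared where both lists together gave at least 50 cDNAs and each gave 10, and the locus calls were tested on simulated data. The named nucleotides are the 3 tallest of each list. The members, comparison loci and settings were chosen with earlier results of these data known. The tools were Python 3.11.15, scipy 1.17.1, numpy 2.4.6, pandas 2.3.3 and, for figures, matplotlib 3.10.9.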

Additional observations from a re-analysis of the deposited data

Results flagged for a closer look

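Summed over the U8 and Tmem107 window, the contrasts between fractions ran in opposite directions in SRSF3 and SRSF7. The difference was not tested because each group is 1 pooled list. The log2 ratio of SRSF7 exceeded that of SRSF3 by 5.79 for chromatin over cytoplasm, the contrast that chose the window. It exceeded it by 3.24 for chromatin over nucleoplasm and by 2.55 for nucleoplasm over cytoplasm. Each of these also uses the chromatin or the cytoplasm shares that chose the window, so neither stands apart from that choice.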

How the results depend on the processing

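The 5 ratios of the window (chromatin over cytoplasm in SRSF3 and in SRSF7, and SRSF3 over SRSF7 in chromatin, nucleoplasm and cytoplasm, in this order below) kept their direction under all 7 alternatives, in 35 of 35 values, of which 8 stayed inside the counting interval of the value reported. Of these 8, 6 could not move, because the wider window added no cDNA and no SRSF7 list holds nt 9, which leaves 2. The log2 ratios of shares were -1.46, 4.33, -2.13, 1.10 and 3.66. With positions of at least 3 cDNAs they were -0.75, 4.12, -1.59, 0.72 and 3.28. That filter was applied to the list totals too, while the window kept 8045 of 8062 cDNAs in SRSF3 chromatin and 3214 of 3219 in SRSF3 cytoplasm. With totals that leave out the mitochondrial genome and the locus with the most cDNAs they were -2.02, 4.22, -2.31, 1.43 and 3.92. With positions counted in place of cDNAs they were -3.30, 2.03, -3.15, 0.29 and 2.17, and the interval of the nucleoplasm value then ran from -0.36 to 0.94. Without the tallest position, nt 9, the SRSF3 value was -1.28 and the 3 values of SRSF3 over SRSF7 were -2.31, 0.61 and 3.30. A window wider by 1000 nt on both sides gave the same values. The alternatives chosen after seeing the data gave -1.88, 3.25, -2.49, 0.95 and 2.38 over positions in both lists and -0.80, 3.80, -2.80, 1.04 and 1.80 over positions in all 6. The number of loci with opposite directions was 44, against 26 with loci joined at 1000 nt and 18 with at least 200 cDNAs per locus, where fewer loci were compared (465 and 253). Of SRSF7 cytoplasm positions in the window, 47.1% lay within 5 nt of a chromatin position and 23.5% on the same nucleotide. The cause of these shifts was not tested. No paired analysis was possible because the replicates of each group were pooled into 1 list before deposit, and for the same reason no replicate could be left out.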
